A study of Mus musculus with 6 samples.

Results

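The genes described here encode the protein components of the cytosolic ribosome, in lymph node T cells of the mouse with and without the histone methyltransferase Ezh2. Members were all probe sets whose single gene symbol in the array's annotation was Rpl or Rps followed by a number, the P stalk symbols included and the Rps6k kinases and pseudogenes left out. This rule took 103 of 45101 probe sets, for 48 of 18194 genes that had a probe set with a single symbol: 48 probe sets of 26 large subunit genes (Rpl) and 55 probe sets of 22 small subunit genes (Rps). A further 110 probe sets carried a member symbol beside other symbols and were not members. Gene expression had been read on 6 one-colour Affymetrix arrays, 3 of Ezh2 fl/fl lymph node T cells and 3 of Ezh2 deficient lymph node T cells; floxed alleles are flanked by sites for the Cre recombinase. The sources used here do not give the driver of the deletion, the strain, the age, the way the cells were purified or whether each array came from its own animal. The p-values therefore cover the spread among these arrays alone, part of which may be technical. Replicates were numbered within each group.

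A ribosome is built from ribosomal RNA and a fixed set of proteins, most of them present in a single copy per particle, so their messenger RNAs are made in step and rank among the most abundant in a dividing or activated lymphocyte. Many of these messengers begin with a C followed by a run of pyrimidines, the 5′ terminal oligopyrimidine (TOP) motif, through which the TOR kinase pathway controls their translation. In T cells, ribosome production rises when a resting cell is activated, under the control of MYC and TOR. Ezh2 carries the enzymatic activity of PRC2, a Polycomb complex that methylates lysine 27 of histone H3 and keeps developmental genes silent.

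The start sites of 8 members described below are printed with 40 bases before and 20 bases from the RefSeq start (GRCm38.p6), the start being the 41st letter. Capitals mark the longest unbroken pyrimidine run within 20 bases of the start, or the first where runs of the same length follow. In Rpl39 the edge of this window cuts the marked run, since the t before it is also a pyrimidine. Only within the window does a later Rpl39 run have the same length. The first 4 are shown as examples of a TOP-type start, which most member entries do not have, and the other 4 are of genes with the largest lower differences or groups that did not overlap.
Rps6 (chr4:86857348-86857407, minus strand): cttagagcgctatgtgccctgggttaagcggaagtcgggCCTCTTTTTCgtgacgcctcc
Rpl38 (chr11:114668540-114668599, plus strand): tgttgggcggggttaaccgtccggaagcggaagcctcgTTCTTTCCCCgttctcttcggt
Rplp2 (chr7:141447611-141447670, plus strand): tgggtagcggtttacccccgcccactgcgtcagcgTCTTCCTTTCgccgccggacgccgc
Rps27 (chr3:90213629-90213688, minus strand): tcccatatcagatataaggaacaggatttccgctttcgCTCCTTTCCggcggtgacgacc
Rpl12 (chr2:32961672-32961731, plus strand): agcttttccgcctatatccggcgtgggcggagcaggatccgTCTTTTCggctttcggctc
Rpl39 (chrX:37085203-37085262, minus strand): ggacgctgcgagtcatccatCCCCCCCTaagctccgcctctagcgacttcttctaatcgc
Rps9 (chr7:3704001-3704060, plus strand): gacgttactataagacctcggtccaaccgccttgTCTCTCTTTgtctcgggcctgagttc
Rpl37a (chr1:72711220-72711279, plus strand): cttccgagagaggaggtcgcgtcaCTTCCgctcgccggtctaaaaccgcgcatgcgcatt

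RefSeq held 50 promoter entries for 42 of the 48 member genes, each of 300 bases. A C at the start followed by 4 pyrimidines stood in 8 of the 50, or 16%, against 2.51% of all 32851 entries. A pyrimidine run of 8 or more within 20 bases of the start stood in 40% of member entries and 16% of all. The letters CCGGAA, the core that ETS factors recognise, were found on either strand in 54.0% of member entries and 14.9% of all, and AAGATGGC, a core of YY1 sites, in 8.0% and 2.75%. TATAAA, read on both strands, was no more frequent among members, with 12.0% against 13.6%. The letters were counted anywhere in the window, and on the reverse strand they can overlap a pyrimidine run. These matches are descriptions of the sequence, and an entry without them shows only that the letters were not in that window.

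The libraries were checked before the members were read. Ezh2 itself, on 1416544_at, was 579, 684 and 801 in the fl/fl arrays and 282, 289 and 276 in the deficient arrays, so the groups did not overlap. Its log2 difference was -1.16 (SE 0.13; limma adjusted p = 0.0705, unadjusted p = 7.83e-06), with 41.0% of the signal left; the part of the gene that this probe set reads was not settled here. All 13 T cell markers with a probe set passed the filter on dim probe sets, and their summed signal was 105874 to 109289 in fl/fl and 106657 to 108710 in deficient arrays. Markers of other cells were also read: the summed signal was 3270 to 3756 against 2925 to 3036 for B cells (7 of 11 markers with a probe set passed the filter), 8713 to 12402 against 9054 to 9529 for myeloid and dendritic cells (9 of 14), 7060 to 8664 against 8276 to 8592 for natural killer cells (5 of 7), 741 to 977 against 610 to 851 for erythroid cells and platelets (2 of 6), and 2013 to 2474 against 2108 to 2169 for stroma and endothelium (5 of 9). Single genes weighed heavily in some sums. Cd72 had the largest mean signal of the B cell list, 1791 in fl/fl and 1257 in deficient arrays, and 5 of the 11 B cell markers were higher in the deficient arrays. Ctss had the largest of the myeloid and dendritic list, 8067 against 7626, and 3 of its 14 markers were higher. No defining marker stood at 0, and Cd79a of B cells and Itgam of myeloid cells lay under the filter. The array Ezh2 fl/fl 1 had the highest sum of each of these lists but the T cell list, and the highest median signal of all arrays, 188.1 against 163.3 to 169.7. It also had the lowest ratio of 3′ to 5′ signal for Gapdh, a measure of RNA integrity that rises as RNA degrades. The log2 ratio was -0.51 against -0.30 to -0.42 on the other 5 arrays. The same ratio for Actb did not set it apart, with 0.24 against 0.21 to 0.28. The part of these differences in the results below was not tested; in bulk samples, fewer cells of a type and less RNA per cell cannot be told apart.

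Ribosomal protein probe sets were among the brightest on every array. Of the 103 members, 66 probe sets of 35 genes lay at or above the 99th percentile of mean signal, 9 between the 90th and 99th, 20 between the 40th and 90th, and 8 under the 40th percentile, where probe sets were not tested. Of the 100 brightest probe sets of each array, 34 to 39 were members, and 79 to 82 were once those with shared symbols were added. Brightness here describes the probe sets and gives no order of transcript levels between genes. The 8 untested members were 1 probe set each of Rpl27a, Rps18, Rps3, Rps4x and Rps6, genes with a brighter probe set, and the probe sets of Rpl3l, Rps16 and Rps4l, which left 45 genes tested. Rpl3l, the striated muscle paralogue of Rpl3, gave 6.0 to 10.3 in fl/fl and 10.4 to 16 in deficient arrays, within the dim range. Probe sets with endings (_a, _s, _x) that mark possible matches to several transcripts made up 71 of the 103, and ribosomal protein genes have many near-identical processed pseudogenes, so a signal may include related transcripts.

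After quantile normalisation, which gives every array the same distribution of values, the ribosomal protein genes of Ezh2 deficient T cells differed little from those of the fl/fl cells. Of the 95 members tested, 40 had a higher and 55 a lower mean in the deficient arrays, where 49.3% of all 27022 probe sets tested were higher. The members' median log2 difference was -0.0043, and that of all probe sets was -0.0029. None of the members was called at limma's adjusted p under 0.05, the lowest being 0.628, against 0.0037% of all probe sets called. At an unadjusted p under 0.05 there were 2, both lower (Rpl12 and Rpl10a) (3.38% of all probe sets were lower at this level, and 7.22% passed it in either direction). The groups did not overlap in 6 members, or 6.32%, against 13.1% of all probe sets; 4 of the 6 were lower (Rpl12, Rpl10a, Rpl39 and Rpl11) and 2 higher (Rpl22 and Rpl6), where 6.54% and 6.55% of all probe sets were lower and higher without overlap.

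The differences were also bounded. For 74 of the 95 members the 95% confidence interval of the difference lay within 0.32 of 0 on the log2 scale, against 26.7% of all probe sets tested. Among the 66 brightest members this held for 63, or 95.5%, and among the 385 other probe sets of that brightness for 365, or 94.8%. These other probe sets include those with a member symbol beside other symbols, so they are not all unrelated to the ribosome. The median standard error was 0.045 for members, 0.049 for those other bright probe sets and 0.138 for all probe sets, on the log2 scale. The bound also depended on the scaling: it held for 70 of the 95 members with the values as deposited, but with each array centred on its median for only 8, where it held for 15.4% of all probe sets, and for 2 of the 66 brightest. The large and small subunits gave similar counts, with 19 of 46 and 21 of 49 probe sets higher and medians of -0.015 and -0.0031. All 6 members without overlap between the groups were of the large subunit, 13.0% of its 46 probe sets against the 13.1% of all probe sets. Under the deposited scaling, however, 4 were of the large and 3 of the small subunit (8.70% and 6.12%, against 13.5% of all). With median centring the counts were 7 and 9 (15.2% and 18.4%, against 14.7% of all). The difference between the subunits was not tested.

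**Figure D1:**
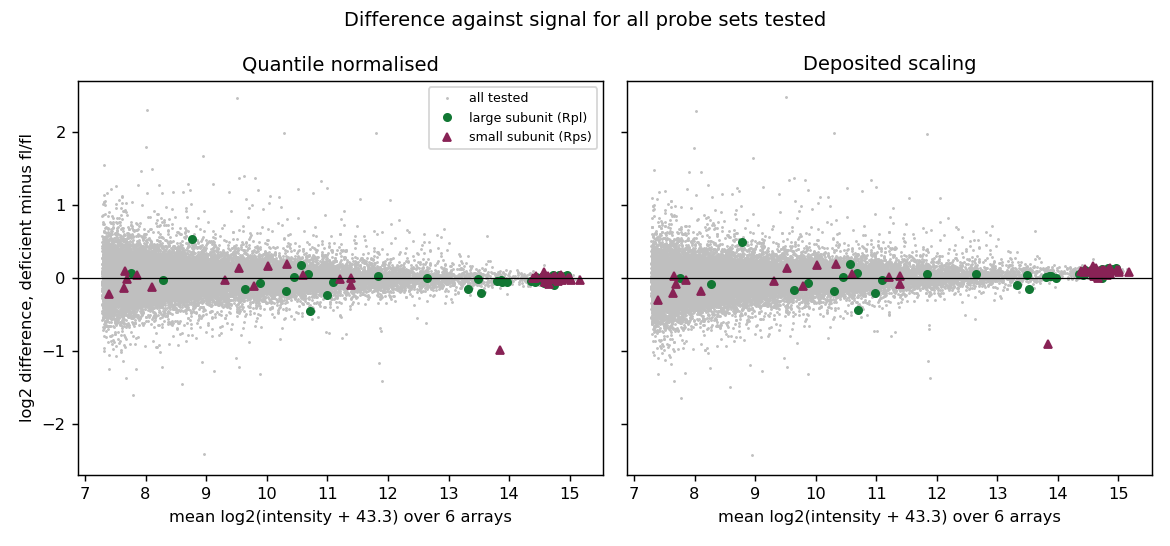
The log2 difference between the 3 Ezh2 deficient and 3 Ezh2 fl/fl arrays (y axis) is plotted against mean log2 signal (x axis) for all 27022 probe sets tested (grey), large subunit members (green circles) and small subunit members (purple triangles), quantile normalised on the left and with deposited scaling on the right. The 66 brightest members lie around 0 on the left and mostly above it on the right, where 62 of them are higher, and 1 bright Rps9 probe set lies near -1 in both.

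The deposited scaling gave another direction. With the values as deposited, 76 of the 95 members, or 80.0%, were higher in the deficient arrays, against 45.6% of all probe sets, and the median log2 difference was 0.07 against -0.02. None was called (lowest limma adjusted p 0.633; 0.0111% of all probe sets called), 1 had an unadjusted p under 0.05 (Rpl12, lower; 7.36% of all, and 4.01% of all lower), and the groups did not overlap in 7 members, 7.37% against 13.5% of all. Of these 7, the higher ones were 1453362_x_at and 1428530_x_at of Rps24, Rpl7a and 1448398_s_at of Rpl22. The lower ones were Rpl12, Rpl39 and 1455600_at of Rps3 (4 higher against 5.84% of all, 3 lower against 7.66%). Rps24 had 6 tested probe sets, of which 4 were higher under this scaling and 3 after quantile normalisation. Only Rpl12, Rpl39 and this Rpl22 probe set had groups that did not overlap under both scalings. The direction changed for 38 members, or 40%, of which 37 went from lower to higher, against 8.66% of all probe sets.

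The change of direction went with signal. Among the 66 brightest members 62 were higher under the deposited scaling, with a median of 0.08, and among the 385 other tested probe sets of that brightness 324 were higher, with a median of 0.07. Among the 29 dimmer members, 14 were higher, with a median of -0.03. The members' shift under the deposited scaling was of the size seen in these other bright probe sets, some of which also carry a member symbol. Bright probe sets without any member symbol were not compared apart. Quantile normalisation, which sets the top ranks of every array to the same values, largely removes any such shift by construction. When the deposited values were instead centred on each array's median, 82 of the 95 members were higher (63.8% of all), the median was 0.15 against 0.06 for all probe sets, and 16 did not overlap, 15 of them higher (14.7% of all, and 11.1% of all higher). The other bright probe sets moved likewise, with 379 of 385 higher and a median of 0.16.

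By array, the deposited shift did not separate the groups. The members' median log2 value relative to the fl/fl mean was -0.11, 0.08 and 0.03 in fl/fl 1 to 3 and 0.11, 0.04 and 0.06 in deficient 1 to 3, or 0.0017 ± 0.097 and 0.070 ± 0.037 (mean ± SD, n = 3 each). The array fl/fl 1 was low, deficient 1 was high, and the remaining 4 arrays of both groups lay between 0.03 and 0.08. The other bright probe sets had medians of -0.09, 0.06 and 0.03, and 0.11, 0.04 and 0.07. Under the deposited scaling fl/fl 1 was the lowest array for 64 of the 95 members (19.9% of all probe sets) and deficient 1 the highest for 49 (14% of all). Without fl/fl 1, 57 of the 95 members were higher under the deposited scaling, with a median of 0.02; without any other array, 70 to 76 of 95 or 96 were higher, with medians of 0.05 to 0.11. After quantile normalisation the array medians ran from -0.014 to 0.0061, and without fl/fl 1 the count of higher members was 38 and the median -0.0086. Members made up 4.77, 5.29 and 5.17% of the summed deposited signal in the fl/fl arrays and 5.37, 5.16 and 5.23% in the deficient arrays, so these ranges overlapped too.

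**Figure D2:**
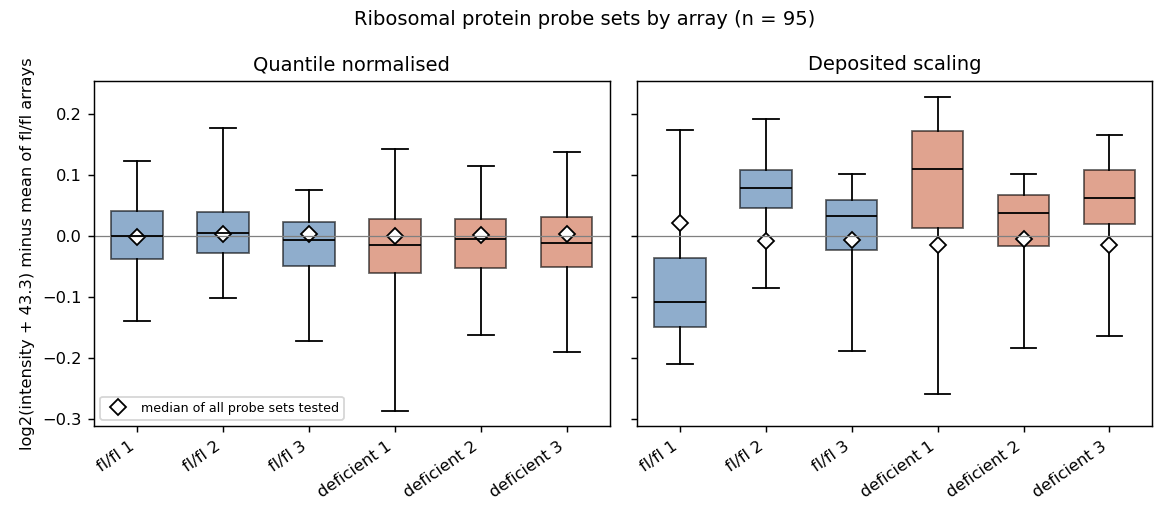
Boxes show the 95 tested ribosomal protein probe sets on each array as log2(intensity + 43.3) minus the fl/fl mean (y axis), quantile normalised on the left and with deposited scaling on the right; the line is the median, the box the quartiles, the whiskers the 5th to 95th percentile, and the diamond the median of all probe sets tested. Deposited medians run from -0.11 in fl/fl 1 to 0.11 in deficient 1, and quantile normalised medians stay near 0.

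The P stalk, where the large subunit recruits elongation factors, held the member with the smallest p. Rpl12, which helps anchor the stalk, read 2352, 2075 and 2053 in fl/fl and 1767, 1873 and 1855 in deficient arrays after quantile normalisation. Every deficient array was below every fl/fl array. Its log2 difference was -0.23 (SE 0.079; 95% confidence interval -0.41 to -0.05; limma adjusted p = 0.628, unadjusted p = 0.0167), it was -0.21 under the deposited scaling and -0.13 with median centring, where the unadjusted p was 0.175 in the same limma test. Leaving out single arrays gave -0.26 to -0.17, with an unadjusted limma p of 0.0606 without deficient 1. Rplp0, the stalk's base, gave 25275, 26648 and 22810 against 23148, 22994 and 25202, a difference of -0.07 (0.02 under the deposited scaling) with overlapping groups. Rplp2, an acidic stalk protein, gave 31141, 30225 and 30368 against 31404, 30850 and 31141, a difference of 0.03. The differences among these stalk genes were not tested.

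Rpl11, which with the 5S RNA can bind Mdm2 and stabilise p53, had 21264, 21173 and 21323 in fl/fl and 20942, 20358 and 20578 in deficient arrays. The groups did not overlap after quantile normalisation, but the difference was only -0.04 (SE 0.036, limma adjusted p = 0.826), and it was 0.05 with overlap under the deposited scaling. Rpl10a, found in only some ribosomes in other cells, read 28062, 28727 and 27862 against 26600, 25741 and 26824, with no overlap. Its difference of -0.10 (SE 0.036, limma adjusted p = 0.640, unadjusted p = 0.0256) became -0.0043 under the deposited scaling, where the arrays read 24843, 29227 and 27878 against 28534, 25468 and 27604 and overlapped.

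Among small subunit genes, Rps6, the ribosomal substrate of the S6 kinases, was read by 1416142_at at 929, 1052 and 839 in fl/fl and 923, 1116 and 1150 in deficient arrays. The groups overlapped, with a difference of 0.17 (SE 0.12, limma adjusted p = 0.783). Rps19, a gene of Diamond-Blackfan anaemia, read 27140, 27791 and 25275 against 24163, 25511 and 25648, a difference of -0.09 after quantile normalisation (limma adjusted p = 0.716) and 0.00095 under the deposited scaling. Rps14 and Rps3, on their brightest probe sets, gave differences of 0.03 and -0.0068 (0.11 and 0.10 under the deposited scaling) with overlapping groups. Rpl38, which in the embryo supports the translation of Hox messengers, and Rpl13a, known from translational silencing in inflammation, gave -0.0070 and 0.01 (0.08 and 0.11 under the deposited scaling). The 95% confidence intervals were -0.05 to 0.10 for Rps14, -0.10 to 0.08 for Rps3, -0.09 to 0.08 for Rpl38, -0.07 to 0.10 for Rpl13a and -0.20 to 0.02 for Rps19.

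Paralogue pairs, in which a second gene encodes a related protein, were compared for each gene separately. Rpl22, needed for the development of alpha-beta T cells, was read by 3 probe sets that disagreed. The brightest, 1453118_s_at, read 23839, 23075 and 23839 in fl/fl and 23075, 23780 and 23515 in deficient arrays, a difference of -0.0077. The least bright of the 3, 1448398_s_at, read 1449, 1426 and 1306 against 1541, 1478 and 1709, without overlap and 0.17 higher (SE 0.087, limma adjusted p = 0.713). On 1416603_at the arrays read 17161, 10492 and 11321 against 10056, 13778 and 9663, a difference of -0.20 in which fl/fl 1 stood above the other arrays. No single direction can be given for Rpl22. Rpl22l1, its paralogue, read 14578, 15092 and 15357 against 14908, 13894 and 15183, a difference of -0.03 (95% confidence interval -0.14 to 0.08).

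Rpl39 lines the exit tunnel of the large subunit and Rpl39l is its paralogue, best known from the testis. Rpl39 read 1384, 1292 and 1258 in fl/fl and 1230, 997 and 1239 in deficient arrays, with no overlap, a difference of -0.18 (SE 0.10, limma adjusted p = 0.725), which was -0.17 under the deposited scaling and -0.09 with median centring. Rpl39l read 207, 538 and 283 against 673, 348 and 468, the largest higher difference of any member at 0.53 (SE 0.31, limma adjusted p = 0.730). Its groups overlapped, and without single arrays the difference ran from 0.27 (without fl/fl 1) to 0.87 (without fl/fl 2). Rpl39 was lower in every deficient array, whereas for Rpl39l fl/fl 2 lay among the deficient arrays.

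Rps27, a zinc-finger protein of the small subunit, read 1014, 1752 and 891 in fl/fl and 1418, 1438 and 1185 in deficient arrays, a difference of 0.19 that ranged from 0.0078 without fl/fl 3 to 0.48 without fl/fl 2. Its p53-responsive paralogue Rps27l gave 3 probe sets with differences of -0.10 to -0.0018, all lower. Rpl7 and Rpl7l1, on their brightest probe sets, gave -0.02 and 0.05, and Rps4x gave 0.01, with overlapping groups in each. Of 31 genes on the list of roles, 20 had a tested member and 9 had no member probe set.

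**Figure D3:**
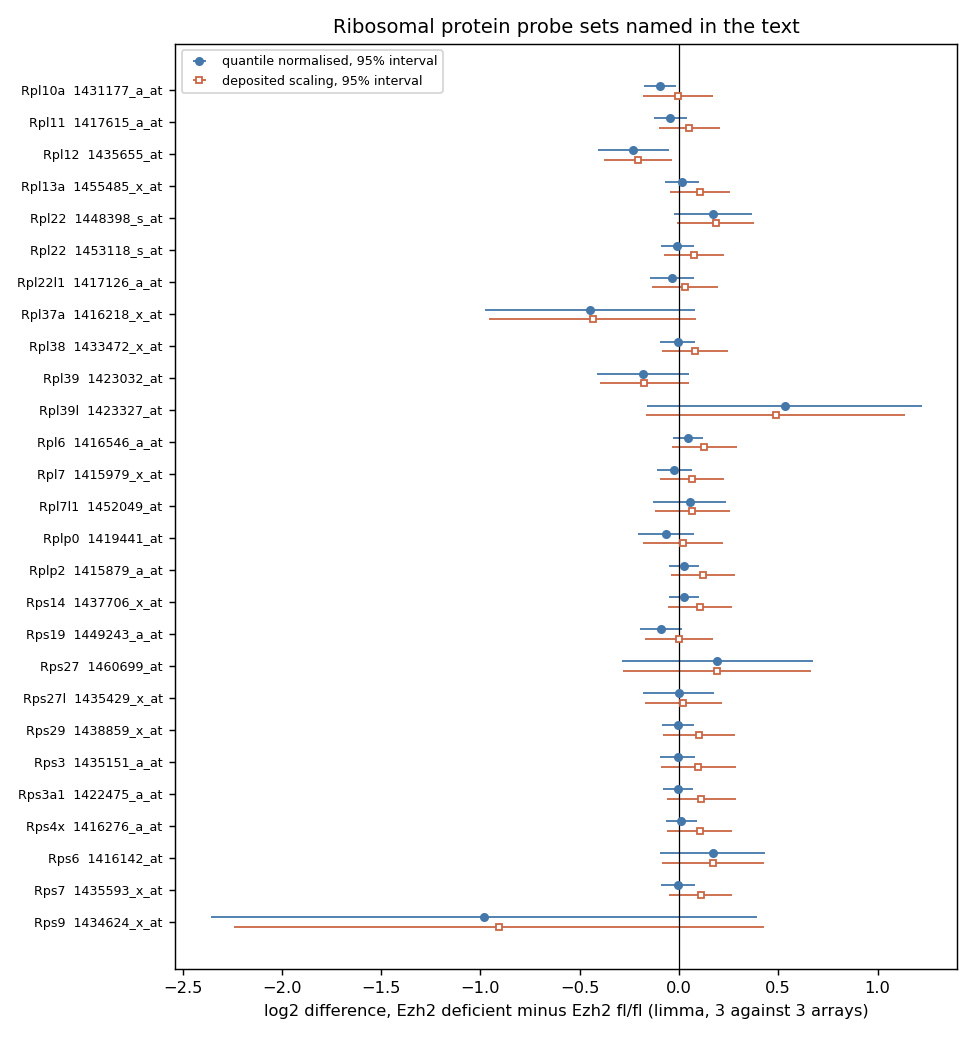
Log2 differences (x axis, Ezh2 deficient minus Ezh2 fl/fl, 3 arrays each) with 95% confidence intervals for the 27 named member probe sets (y axis), quantile normalised (filled circles) and with deposited scaling (open squares). The interval of Rpl12 excludes 0 under both scalings before adjustment, and the 2 widest intervals are those of Rps9 and Rpl39l.

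The largest lower differences rested on the array Ezh2 deficient 1. Rps9, a protein of early small subunit assembly, was read by 1434624_x_at at 24977, 19534 and 18468 in fl/fl and 2939, 20695 and 18949 in deficient arrays. With 43.3 added to each intensity, deficient 1 lay 6.21-fold below the nearest other array, and the other 5 arrays overlapped. The difference was -0.98 (SE 0.61, limma adjusted p = 0.759) and -0.07 without deficient 1. The other 2 Rps9 probe sets did not show it: 1433689_s_at read 26054, 25682 and 26910 against 27004, 25906 and 25766, a difference of 0.00051, and 1426958_at was 0.14 higher.

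Rpl37a showed a smaller gap on the same array. Its 1416218_x_at read 1879, 1821 and 2042 in fl/fl and 859, 1855 and 1677 in deficient arrays. With 43.3 added to each intensity, deficient 1 lay 1.91-fold below the nearest other. The difference was -0.45 (SE 0.24, limma adjusted p = 0.716) and -0.11 without deficient 1, and the other 2 probe sets gave 0.0086 and 0.04. A gap of over 1 on the log2 scale between 1 array and all others occurred in 1 of 95 members and in 0.807% of all probe sets tested, and that Rps9 probe set was the only one at or above the 99th percentile of signal. The scanned image of this array was not used here, and no cause of the gap was tested.

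**Figure D4:**
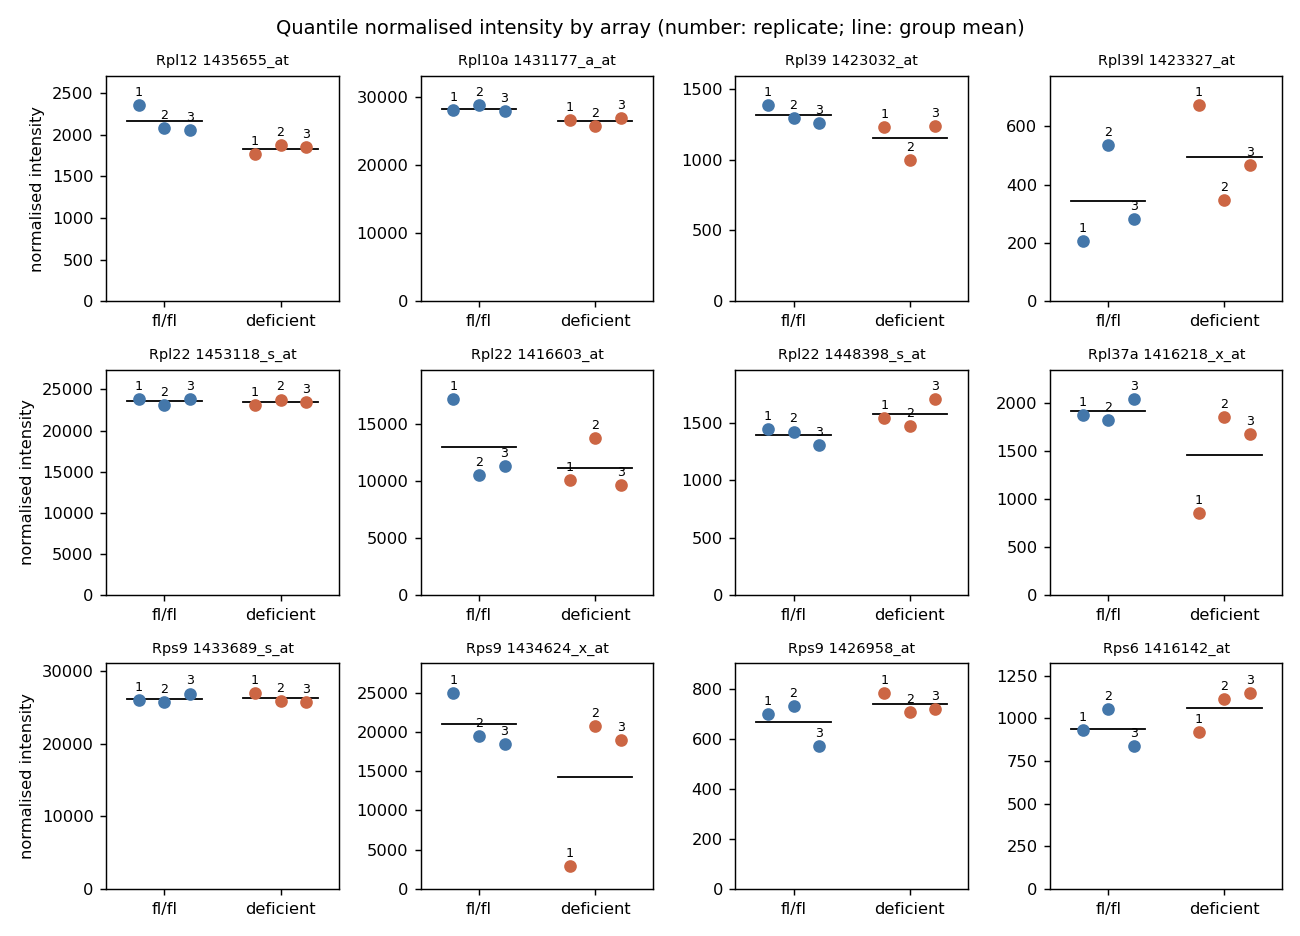
Quantile normalised intensity (y axis, linear, from 0) of 12 ribosomal protein probe sets on each of the 3 Ezh2 fl/fl (blue) and 3 Ezh2 deficient (red) arrays; numbers are replicates and lines are group means. Rpl12, Rpl10a, Rpl39 and 1448398_s_at of Rpl22 separate the groups, the 3 probe sets of Rpl22 differ in direction, and deficient 1 stands apart for 1 probe set each of Rps9 (2939) and Rpl37a (859).

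Several probe sets of 1 gene often disagreed in sign after quantile normalisation. Of the 20 genes with more than 1 tested probe set, 4 (Rpl27, Rps15, Rps27l and Rps3) had all of them on the same side and 16 had both signs. Their differences spanned over 0.2 on the log2 scale in 4 genes, Rpl22, Rpl37a, Rps20 and Rps9, and less in the rest. This agreement changed with the scaling. Under the deposited scaling all 4 probe sets of Rpl13a and all 6 of Rpl35 were higher, whereas Rps27l (2 of 3 higher) and Rps3 (1 of 2) had both signs. With 1 probe set per gene, the brightest, 22 of 45 genes were higher after quantile normalisation and 40 of 45 under the deposited scaling. Of all genes, 46.9% and 45.3% were higher. The medians of the 45 genes were -0.0018 and 0.09. The bright members Rps7, Rps3a1 and Rps29 show the effect of the scaling on single genes and went from -0.0029, -0.0027 and -0.0036 after quantile normalisation to 0.11, 0.11 and 0.10.

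The other genes of ribosome production and translation were read from lists, 1 probe set per gene, the brightest. None of their genes was called under either scaling. Of all 12275 genes tested 46.9% were higher after quantile normalisation, with a median of -0.01. Under the deposited scaling 45.3% of all genes were higher, and with median centring 64.2%. Of the mitochondrial ribosomal proteins, which build the separate ribosome of that organelle, 18 of 76 were higher, with a median of -0.07; 9, or 11.8%, did not overlap between the groups, all lower, where 14.2% of all genes did not overlap and 7.80% were lower without overlap. Mrps21 read 2106, 1711 and 1781 in fl/fl and 1333, 1338 and 1571 in deficient arrays, a difference of -0.39 (SE 0.10, limma adjusted p = 0.532), although its other probe set was 0.13 higher. Mrpl34 was at -0.24 (limma adjusted p = 0.646), and its other probe set at -0.28. Under the deposited scaling 21 of 76 were higher, with a median of -0.05, but 47 of 76 with median centring, with a median of 0.03 against 0.06 for all genes.

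Ribosome biogenesis factors, which process and assemble the subunits in the nucleolus, had 19 of 69 genes higher, a median of -0.05, and 10 genes without overlap, all lower (14.5%, against the same 14.2% and 7.80% of all genes). Nle1, an assembly factor of the large subunit, read 692, 840 and 915 against 677, 538 and 606, a difference of -0.40 (SE 0.13, limma adjusted p = 0.619), and Rrp1 was at -0.16 (limma adjusted p = 0.654). Under the deposited scaling 24 of 69 were higher, and with median centring 52 of 69. The subunits and factors of RNA polymerase I, which transcribes ribosomal RNA, had 6 of 17 higher and a median of -0.03, with Polr2f, a subunit shared between polymerases, at -0.24 (limma adjusted p = 0.636) and Znrd1 at -0.12.

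Translation initiation factors had 16 of 38 genes higher and a median of -0.01; Eif2b2, a subunit of the exchange factor of eIF2, read 3394, 3211 and 3182 against 2820, 2715 and 2845, a difference of -0.22 (SE 0.063, limma adjusted p = 0.573), and Eif3i was at -0.11. Elongation and release factors had 4 of 9 higher, with the eEF2 kinase Eef2k at -0.20 and its substrate Eef2 at -0.06 (0.03 under the deposited scaling), and the other TOP messengers had 7 of 17 higher. Under the deposited scaling, on the brightest probe set of each gene, 27 of 38, 7 of 9 and 16 of 17 were higher in these lists; over all their probe sets the counts were 55 of 97, 12 of 25 and 31 of 36. Of the ribosomal proteins that the symbol rule leaves out, Fau was at -0.08 without overlap (0.0077 under the deposited scaling) and Rpsa at -0.02. The MYC and TOR regulators of ribosome production had 14 of 22 genes higher under both scalings, with a median of 0.06 in each. Over all 44 of their probe sets, 26 were higher after quantile normalisation and 23 under the deposited scaling, with medians of 0.05 and 0.01. The list also holds inhibitors such as Tsc1, so these counts give no direction of a pathway. Max, the partner of MYC, was at 0.44. Tsc1, an inhibitor of TOR signalling, read 793, 785 and 868 against 954, 996 and 934, a difference of 0.23 (SE 0.088, limma adjusted p = 0.646), and Myc was at 0.05 with overlapping groups.

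**Figure D5:**
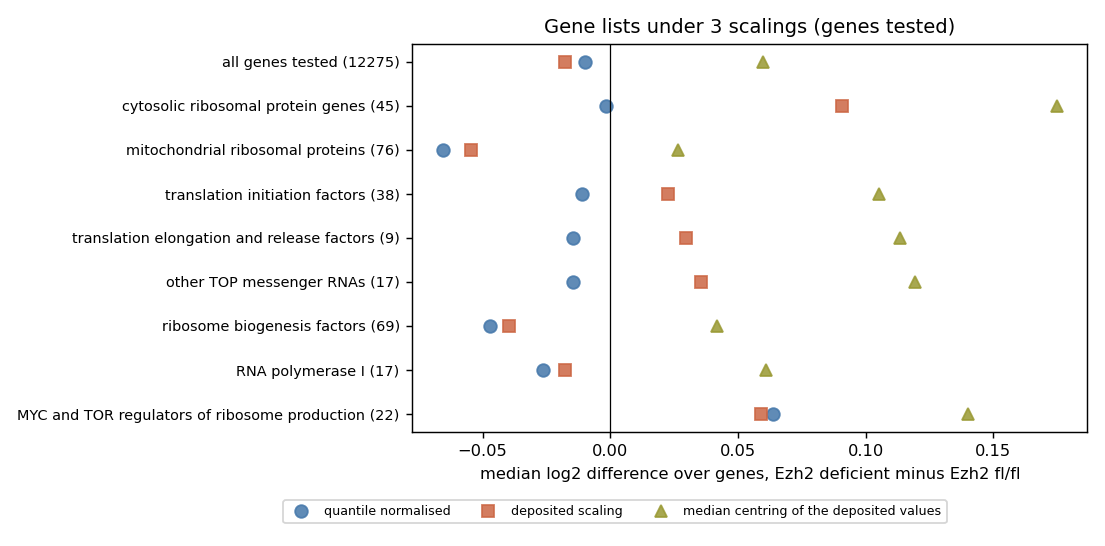
Median log2 difference (x axis, Ezh2 deficient minus Ezh2 fl/fl) over the genes of each list (y axis, number of genes tested in parentheses), 1 probe set per gene, for quantile normalised values (circles), deposited scaling (squares) and median centring of the deposited values (triangles). The cytosolic ribosomal protein genes move from -0.0018 to 0.09 and 0.17 between the 3 scalings, a wider span than that of all genes (-0.01, -0.02 and 0.06).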

How the data were processed

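The deposited values were linear intensities, 1 per probe set and array; the sources used here do not name the authors' software or settings. Each array's trimmed mean (2% left out at each end) was 500.002 in the deposited table. Arrays were quantile normalised with limma 3.58.1 (R 4.3.3) and turned into log2(intensity + 43.3), 43.3 being the 20th percentile of positive values; fold changes on this scale understate dim probe sets. The 64 control probe sets and those under the 40th percentile of mean log2 value were left out. limma's lmFit and eBayes with a trend were fitted to all 6 arrays, with Benjamini-Hochberg adjustment over all 27022 probe sets (called under 0.05), and tested on simulated data. With 3 arrays against 3, 4 residual degrees of freedom and an exact p of at least 0.10 limit the precision. Members and lists were chosen with earlier results of these data known. Named members were a list of roles, the 6 per direction with the smallest p and no overlap, the 3 largest differences per direction, and 3 that changed direction with scaling; of other lists, the 2 genes with the smallest p. Myc, Rps24, Rpl7a and some further probe sets of named genes were chosen after their values were seen. Alternatives were the deposited scaling, median centring, other pseudocounts and filters, other eBayes settings, 1 value per gene, and leaving out each array.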

Additional observations from a re-analysis of the deposited data

How the results depend on the processing

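No member was called under any alternative run. The count of higher members, 40 of 95, became 76 with the deposited scaling, 82 with median centring, 22 and 21 of 45 genes with the brightest probe set and with the mean of a gene's probe sets, 11 of 25 without the _s_at, _x_at and _a_at probe sets, and, chosen after seeing the data, 81 of 200 with probe sets of shared symbols. The median, -0.0043, became 0.068 with the deposited scaling and 0.15 with median centring. The count without overlap, 6, became 16 with median centring (16.8% of members, where 14.7% of all probe sets did not overlap). It became 2 without the suffixed probe sets (8.0%) and 17 of 200 with shared symbols (8.5%), where 13.1% of all did not overlap. Without single arrays the higher count was 38 to 43, the median -0.014 to -0.0043 and the count without overlap 10 to 21 (10.5 to 22.1% of members, where 22 to 24.9% of all probe sets did not overlap). Chosen after seeing the data, leaving single arrays out of the deposited scaling gave medians of 0.017 without fl/fl 1, 0.11, 0.078, 0.049, 0.087 and 0.068 without fl/fl 2 and 3 and deficient 1 to 3; 76, 74, 70, 75 and 71 members higher without the last 5 of these; and 9, 38, 10, 8, 31 and 17 without overlap in the order of the medians, where 23.4, 25.9, 25.2, 22.1, 23.8 and 22.6% of all probe sets did not overlap.

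Of the 27 named probe sets, 13 kept their direction throughout. The deposited scaling turned Rplp0 (0.0203), Rpl11 (0.052), Rps3 (0.10), Rps19 (0.00095), Rpl38 (0.081), Rpl22 (0.076), Rpl22l1 (0.0304), Rps27l (0.023), Rpl7 (0.066), Rps7 (0.11), Rps3a1 (0.11) and Rps29 (0.10) from lower to higher. Median centring turned Rplp0 (0.10), Rpl11 (0.14), Rps3 (0.18), Rps19 (0.085), Rpl38 (0.17), Rpl10a (0.0799), Rpl22 (0.16), Rpl22l1 (0.11), Rps27l (0.11), Rpl7 (0.15), Rps7 (0.19), Rps3a1 (0.20) and Rps29 (0.19), and array weights turned Rps7 (0.0039). Without single arrays, the signs of Rps3 (-0.024 to 0.023), Rpl38 (-0.033 to 0.016), Rpl13a (-0.0067 to 0.039), Rpl22 (-0.023 to 0.0036), Rpl22l1 (-0.0598 to 0.0026), Rps27l (-0.071 to 0.055), Rpl7 (-0.038 to 0.0059), Rps7 (-0.022 to 0.021), Rps3a1 (-0.018 to 0.0084) and Rps29 (-0.019 to 0.014) turned. Causes were not tested beyond what the construction of an alternative shows. No paired analysis was possible because no replicate number is shared between the groups in the titles. The number of arrays limits the precision.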
